A study of Mus musculus with 3 samples.

Results

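Late round spermatids are the haploid cells of the testis in which the transcripts of protamines and transition proteins have begun to accumulate but do not yet dominate the RNA. Here they were barcodes with at least 4000 unique molecular identifiers (UMIs, each counting 1 captured molecule), over 500 genes and under 10% of UMIs from mitochondrially encoded genes, in which Prm1, Prm2, Tnp1 and Tnp2 together made up 2% to under 20% of the UMIs. Piwil1, a spermatocyte gene, had to lie under 0.01% of UMIs, and the Sertoli cell genes Cst9, Rhox8 and Clu together under 0.05%. The rule took in 602 of the 6424 barcodes that passed the limits on UMIs, genes and mitochondrial share.

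The cells came from mouse testis of 3 genotypes, each with 1 library of about 7000 loaded cells: wild type (WT), GRTH knockout (KO) and GRTH knock-in (KI). GRTH, encoded by Ddx25, is a testis-specific DEAD-box RNA helicase. The KI animals carry the human GRTH gene with a point mutation that removes the phosphorylated form of the protein, and the KO animals lack the gene. The labels give C57BL/6 mice of 8 weeks for every library and single animals, whereas the study's methods give a wider age range and testes pooled from a pair of mice per genotype. With 1 library per genotype there was no replicate check, so every difference between genotypes below compares these libraries, and the 95% intervals given cover counting error only.

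In spermiogenesis a round spermatid builds an acrosome and a flagellum while its genome is still transcribed, and then its histones are exchanged for transition proteins and finally for protamines. Transcripts of the protamines are made early, held in cytoplasmic particles and translated later. GRTH is known for its part in exporting and storing such messages, and spermatids of males without it arrest before elongation. Transcription of many of these genes depends on CREM, a factor that binds cAMP response elements.

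Of the 4 genes that define these cells, Prm1, Prm2 and Tnp2 are neighbours on chromosome 16 and Tnp1 on chromosome 1. The promoters of Prm1 and Tnp1 are shown because they carry the response-element letters. Each is the RefSeq window of 300 bases on GRCm38.p6, from 250 bases before the start of transcription to 50 after it, written along the gene. The capitals mark the match to TGACNTCA, searched on both strands.

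Prm1: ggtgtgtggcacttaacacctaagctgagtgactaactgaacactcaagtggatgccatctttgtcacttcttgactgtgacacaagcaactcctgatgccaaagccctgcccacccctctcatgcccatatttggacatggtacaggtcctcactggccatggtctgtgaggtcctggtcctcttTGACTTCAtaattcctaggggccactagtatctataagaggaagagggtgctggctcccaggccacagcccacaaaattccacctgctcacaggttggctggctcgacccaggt
Tnp1: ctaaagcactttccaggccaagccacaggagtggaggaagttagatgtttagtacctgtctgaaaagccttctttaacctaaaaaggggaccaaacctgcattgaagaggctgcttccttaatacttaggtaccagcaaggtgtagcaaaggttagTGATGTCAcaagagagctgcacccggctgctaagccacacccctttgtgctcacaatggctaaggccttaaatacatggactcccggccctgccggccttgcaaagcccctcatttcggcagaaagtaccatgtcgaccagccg

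The Prm1 window covers chr16:10796774-10797073 on the minus strand, and its match begins 64 bases before the start. The Tnp1 window covers chr1:73015850-73016149, also on the minus strand, with the match on the opposite strand of the window and its first base 94 bases before the start. The windows of Prm2 (chr16:10792056-10792355) and Tnp2 (chr16:10788606-10788905) hold no such letters. TGACNTCA stood in 2902 of 32851 mouse promoters of this length (8.83%) and in 817 of 7230 promoters of the genes compared below (11.3%). The full palindrome TGACGTCA, which the first motif includes, stood in 1.79% of all promoters and in 3.5% of those of the compared genes. A match of letters is a description of the window and not a bound site.

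Late round spermatids made up 272 of 3294 kept barcodes in WT (8.26%, exact Clopper-Pearson interval 7.34 to 9.25), 242 of 2058 in KO (11.8%, 10.4 to 13.2) and 88 of 1072 in KI (8.21%, 6.64 to 10.0). Set against spermatids alone, they were 12.3% of 2204 for WT, 33.4% of 724 for KO and 22.5% of 391 for KI. Spermatids past the upper limit of 20% numbered 1325 in WT, 3 in KI and 0 in KO, where 0 of 724, taken as up to 3 cells, allows a share of up to 0.414%. From 2000 UMIs per barcode on, the members made up 11.04% for WT, 9.76% for KO and 10.3% for KI, so the order of the libraries turned with the limit on UMIs. In WT a large later population thus followed the late round spermatids, and in the mutants nearly none did. The members were chosen by the measured shares of these transcripts, which set the counts, so the counts are a description.

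The protamine share of single cells reached 50.7% for WT, 12.9% for KO and 25.6% for KI. The range was divided into bins of 2 to under 5%, 5 to under 10% and 10 to under 20% protamine and transition UMIs. In WT these held 53, 67 and 152 cells, in KO 36, 179 and 27, and in KI 20, 55 and 13. Mutant cells were gathered in the middle bin, with 74.0% of the KO and 62.5% of the KI cells against 24.6% in WT. The top bin held 55.9% of the WT cells (interval 49.8 to 61.9), 11.2% of KO (7.48 to 15.8) and 14.8% of KI (8.11 to 23.9). The median share was 11.5% for WT, 7.99% for KO and 7.79% for KI. At the upper limit the WT cells ran on without a gap, with 41 cells at 18 to 20% and 67 at 20 to 22%, whereas neither mutant had a cell in these ranges. At the lower limit 53 WT, 18 KO and 9 KI spermatids lay at 1 to 2%, and 16, 13 and 6 at 2 to 3%. The cells nearest to this limit held 1.97% below and 2.11% above it for WT, 1.61% and 2.15% for KO, and 1.92% and 2.11% for KI.

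**Figure D1:**
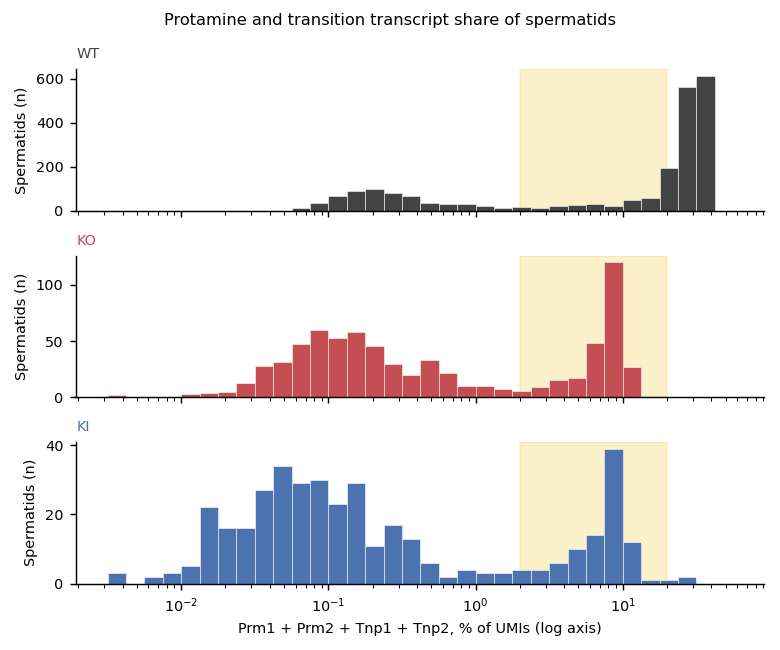
Protamine and transition transcripts as a percentage of the UMIs of each spermatid (x axis) in WT, KO and KI, on a log axis, with the number of spermatids on the y axis and the range of 2% to 20% shaded. WT continues to 50.7%, while the KO cells end at 12.9% and all but 3 KI cells lie under the upper limit.

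Ddx25, the targeted gene, was read with 472 UMIs in the WT cells, 1 in KO and 324 in KI, which is 104, 0.193 and 99.7 CPM. CPM here means the UMIs of a gene summed over the late round spermatids of a library, divided by all their UMIs but those of the 4 protamine and transition genes and scaled as usual for counts per total. The KO level was 0.00187 of WT, with an interval of the log2 ratio of −14.37 to −6.58, whereas the log2 ratio of KI over WT was −0.06 with an interval of −0.27 to 0.15. The KO cells thus matched their label. Barcodes of 1 to 100 UMIs, taken as free RNA, held 151 CPM of Ddx25 for WT and 41.0 CPM, from 94 UMIs, for KO. How reads of the human gene in KI were counted was not tested, so the KI level does not check the mutation. In early round spermatids Ddx25 stood at 160 CPM for WT, 0 for KO and 143 for KI.

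Summed over cells, the comparison rested on 5091839 UMIs for WT, 5598817 for KO and 3531500 for KI. Without the 4 protamine and transition genes these were 4549866, 5168202 and 3248916, so that 1 UMI was worth 0.22, 0.193 and 0.308 CPM. Median UMIs per cell were 13974.5 for WT, 16801.5 for KO and 24633 for KI, and median genes per cell were 3661.5, 4116.5 and 4930.5. After each cell was thinned to 4000 UMIs, the median was 1817.5 genes for WT, 1922 for KO and 2005 for KI. No cell barcode of these cells was shared between libraries.

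The WT cells stood apart in their doublet scores. Scrublet scores barcodes by their likeness to simulated pairs of cells. It placed 46 of 272 WT cells (16.9%) among the library's highest scores, against 3 of 242 in KO and 1 of 88 in KI. The highest scores were cut at 0.8% per 1000 kept barcodes, so a larger library had a larger share cut. The cut took 87 of the 3294 kept WT barcodes, 34 of 2058 for KO and 9 of 1072 for KI. Part of the contrast between 46, 3 and 1 cells can therefore come from the cut. Scrublet's own threshold called 68 of the kept WT barcodes, 11 in KO and 5 in KI, and 39, 1 and 0 of these were late round spermatids. The 46 WT cells carried 3726 CPM of spermatocyte markers in sum, against 1607 CPM in the other WT late round spermatids and 3278 CPM in WT early round spermatids. WT is also the library with later spermatids in number, from which simulated pairs can be drawn, so whether the 46 cells are doublets was not tested. These cells also held 7664 CPM of mitochondrially encoded genes, against 1294 CPM in the other WT late cells and 4211 CPM in early ones. Piwil1 stood at 22.01 CPM in them, from 16 UMIs, against 7.85 and 6.97 CPM. The rule itself kept Piwil1 low in every late cell, so its level is no measure of spermatocyte RNA in the 46 cells. The median of the 46 cells was 15540 UMIs, against 13140.5 in the other WT late cells. Values without the high scores stand beside many of the results that follow.

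Free RNA was read from barcodes with 1 to 100 UMIs, in which the protamine and transition genes took 5.70% of UMIs for WT, 2.57% for KO and 2.48% for KI. Pachytene spermatocytes, which should lack these transcripts, had a median of 0.0653%, 0.0217% and 0.0097%, all below the lower limit of 2%. At or above 2% lay 13 of 240 pachytene barcodes for WT, 1 of 271 for KO and 0 of 143 for KI. Markers of other cell types were low in the late round spermatids. The 16 Sertoli cell markers summed to 37.4 CPM for WT, 110 for KO and 95.1 for KI, with Amh at 0 in all 3 libraries and Defb19 at 17.4, 46.2 and 34.5 CPM. The 16 include Cst9, Rhox8 and Clu, which the rule itself kept low, and without these the sums were 31.0, 92.5 and 85.0 CPM. The 15 macrophage markers summed to 43.1, 59.2 and 55.7 CPM, with C1qa, C1qc, Csf1r and Cd74 at 0 throughout but C1qb at 18.9, 31.9 and 24.9 CPM and H2-Ab1 at 18.7, 19.3 and 20.6 CPM, and the 12 spermatogonial markers to 51.6, 58.8 and 59.7 CPM. Leydig, stromal and myoid, and erythroid and endothelial markers summed to between 3.52 and 35.2 CPM, with Hba-a1, Hbb-bs and Hbb-bt at 0 and the endothelial gene Vwf at 7.25, 31.0 and 19.4 CPM. All 6 of these sums were higher in both mutants than in WT, and their part in the results below was not tested.

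Of the markers outside the rule for late cells, only Acrv1 and Smcp are set out by stage here. In all 3 libraries they lay between the library's early cells and the later WT spermatids. KO had 0 and KI 3 later spermatids, so the mutants have no upper end of their own. The round spermatid marker Acrv1, an acrosomal vesicle protein that also helped to define the early cells, was at 519 CPM for WT, 578 for KO and 549 for KI, against 671, 706 and 733 CPM in early cells and 34.5 CPM in later WT spermatids. Smcp, a marker of elongation, was at 3629, 3001 and 3141 CPM, against 1463, 1286 and 1292 CPM in early cells and 8817 CPM in later WT spermatids. Other spermatid genes did not fall as Acrv1 did. The 8 compared testis-specific serine kinase genes had median log2 ratios of late over early cells of 0.79 for WT, 0.89 for KO and 0.97 for KI, with 1 gene lower past 2-fold in each.

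Of the UMIs of the 4 genes, Prm1 took 37.2% for WT, 32.2% for KO and 31.6% for KI, and Prm2 30.9%, 30.3% and 31.5%. Tnp1 took 13.6%, 14.4% and 14.4%, and Tnp2 18.2%, 23.1% and 22.5%. Tnp2, which encodes the second transition protein, thus held a larger part and Prm1 a smaller part of the total in both mutants. Prm1 took more of the total in every library with the bins, from 32.4% to 35.7% and 38.1% in WT, from 29.9% to 33.8% in KO and from 29.8% to 32.6% in KI. In WT cells past the upper limit it reached 41.4%. Tnp2 differed between the genotypes within every bin, at 17.9%, 18.2% and 18.3% in WT against 22.3%, 23.1% and 23.2% in KO. In KI it was 22.9% in the middle bin, and it stayed below that in the top one. In WT early round spermatids Tnp1 took 31.2% of the few UMIs of these genes. The rule used the sum of the 4 genes, so their levels are no finding, and the composition is given as a description.

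**Figure D2:**
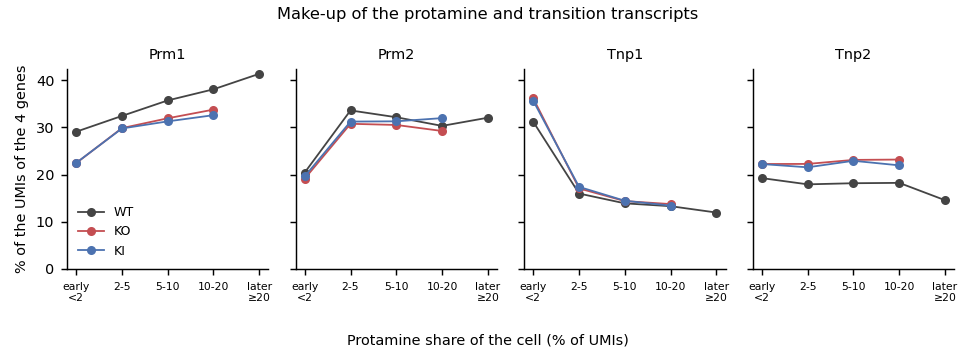
Percentage of the summed UMIs of Prm1, Prm2, Tnp1 and Tnp2 taken by each gene (y axis) in early round spermatids, the 3 protamine bins and, for WT, later spermatids (x axis), each point 1 library. Among the bins Prm1 is higher in WT and Tnp2 is higher in KO and KI in every bin.

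The 10 other genes with the most UMIs all differed by less than 2-fold between the genotypes. Meig1, needed for the manchette that shapes the head, was at 7224 CPM for WT, 6976 for KO and 6522 for KI. From here on, 3 levels of a gene without further words are those of WT, KO and KI in this order, and 2 bracketed values are the log2 ratios of KO and of KI against WT. Ldhc, the germ cell lactate dehydrogenase, was at 5351, 5255 and 5031 CPM. Ropn1l, a fibrous sheath protein, stood at 4162, 4059 and 4065 CPM, and Gpx4, the peroxidase of the sperm midpiece capsule, at 3588, 3387 and 3142 CPM. These 4 were nearly level between the libraries, while Smcp, also among the 10, was at 3629, 3001 and 3141 CPM (−0.27 and −0.21). Rnf151, a RING finger protein of the acrosome, stood at 2872, 3586 and 3320 CPM, and the predicted gene 1700003F12Rik at 4592, 5053 and 4680 CPM. Among the 10, Gm5617 had the widest log2 difference, with 5550 CPM in WT against 3564 and 3548. Dbil5, an acyl-CoA binding relative, was at 4677, 3826 and 3686 CPM, and Gstm5, a glutathione transferase, at 4670, 3766 and 3649 CPM.

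Compared with early round spermatids (under 2% protamine share, with the acrosomal genes Acrv1, Spaca1 and Spaca3 at 0.1% of UMIs or more), the late cells differed in many genes in every library. The comparison used 7423 of 31053 genes, whose mean over the 3 libraries reached 10 CPM and outside the 8 genes of the rule. A gene counted as higher or lower when the log2 ratio, taken with 1 CPM added, was past 1, a 2-fold difference. In WT 1647 genes were higher (22.2%) and 1051 lower (14.2%) in the late cells. In KO 1910 genes were higher (25.7%) and 1814 lower (24.4%), and in KI 2041 (27.5%) and 1906 (25.7%). Across the 3250 genes at a mean of 50 CPM or more, the log2 ratios of late over early cells correlated with r = 0.95 between WT and KO, 0.95 between WT and KI, and 0.99 between KO and KI. These are correlations across genes, which are not independent replicates. The rule itself separates the stages, so these counts describe it.

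Within the late cells, the highest bin was set against the lowest in each library. In WT 766 genes were higher (10.3%) and 1336 lower (18%). The numbers for KO were 571 (7.69%) and 1441 (19.4%), and those for KI 503 (6.78%) and 1502 (20.2%). Thinned to 4000 UMIs a cell the KO numbers were 1100 and 2176 and the KI numbers 1002 and 2892, while those of WT stayed within 1.5-fold. Thinning leaves few UMIs in the top bins of KO and KI, which hold 27 and 13 cells, and so widens the counting error there. The top bin also reached further in WT, with a mean protamine share of 15.3% against 10.7% and 11.7%. Across genes, the log2 ratios of the bins correlated with r = 0.80 between WT and KO and between WT and KI, and 0.85 between KO and KI.

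The genes with the steepest upward difference from the lowest to the highest bin in all 3 libraries included Car2, a carbonic anhydrase, at 100, 171 and 424 CPM over the WT bins, 83.8, 272 and 385 in KO and 97.8, 279 and 440 in KI. Cby3, a chibby family protein, went from 10 to 26 and 164 CPM in WT, from 27.5 to 93.6 and 141 in KO and from 26.2 to 89 and 208 in KI. At the middle bin both mutants were already above WT for Cby3 and Car2. The mean protamine share of that bin was also higher in the mutants, at 7.12% for WT, 7.94% for KO and 7.97% for KI. Prss51, a serine protease, Tmem189, Col20a1, a collagen, Wasf2, an actin regulator, and 1700034G24Rik were of the same group. The predicted gene 1700084D21Rik, which reached 208 CPM in the WT top bin, reached 77.5 in KO and 136 in KI.

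The genes with the steepest downward difference included Lyar, a nucleolar regulator of cell growth, at 1399, 615 and 297 CPM over the WT bins, 676, 186 and 70.4 in KO and 493, 73.9 and 21.7 in KI. Ift43, a subunit of the intraflagellar transport complex, went from 372 to 183 and 64.3 CPM in WT, from 258 to 36.9 and 11.5 in KO and from 213 to 14 and 6.78 in KI. Hmgn1, a nucleosome-binding protein, went from 187 to 122 and 30.3 CPM in WT, from 228 to 41.7 and 17.2 in KO and from 176 to 48.7 and 16.3 in KI. All 3 were below WT in both mutants in the middle bin, where the mean protamine share was higher in both mutants than in WT. Lyar and Ift43 were close between genotypes in early round spermatids, at 2099, 2271 and 2366 CPM for Lyar and 596, 558 and 533 CPM for Ift43. Without the cells of high doublet score in all 3 libraries (46, 3 and 1), the log2 ratio of all late cells for Lyar went from −1.29 to −0.66 in KO and from −1.99 to −1.18 in KI, and for Ift43 from −1.20 to −0.87 and from −1.51 to −1.11. The others of this group were Glipr1l1, 4930444P10Rik, Bola3, Pphln1 and Evi5.

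Between genotypes, 731 of the 7423 genes were higher in KO than in WT (9.85%) and 630 lower (8.49%). In KI 852 genes were higher than in WT (11.5%) and 708 lower (9.54%). Both comparisons use the same WT library, so a WT level that is off by counting or handling enters both. Genes were taken by their mean over the 3 libraries, so a gene high in both mutants enters more readily than one high in WT alone. At a mean of 1 CPM or more the balance turned, with 1571 higher and 1671 lower in KO and 1812 and 2124 in KI. At 50 CPM or more it did not, with 194 and 173 in KO and 223 and 156 in KI. The median gene was at 0.02 in KO and 0.04 in KI on the log2 scale, relative to totals without the protamine and transition genes. It was at 0.071 and 0.092 relative to totals of all UMIs, and at 0.088 and 0.11 when TMM factors were applied to those. None of these scalings can show a shift of all genes together. Without the high doublet scores and over 7277 genes, 709 were higher (9.74%) and 480 lower (6.6%) in KO, and 783 (10.8%) and 470 (6.46%) in KI. When each cell had the same weight in place of each UMI, 975 were higher and 680 lower in KO, and 1576 and 737 in KI. Subtracting free RNA in the share given by markers of other cell types left 6241 genes, of which 1284 were lower in KO. That share was 45.4% in KO, and Ddx25 stood at 41.0 CPM in KO free RNA and at 0.193 CPM in the KO cells. The source of those reads was not tested. Among early round spermatids 365 of the same genes were higher (4.92%) and 170 lower (2.29%) in KO, and 346 (4.66%) and 215 (2.9%) in KI. The 7423 genes were chosen by their level in late cells, so these counts cannot be set directly against those of the late cells.

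Within the bins the counts were of similar size or larger. At 2 to under 5% protamine share 881 genes were higher in KO (11.9%) and 738 lower (9.94%), and 1044 were higher in KI (14.1%) and 838 lower (11.3%). At 5 to under 10% the numbers were 1033 (13.9%) and 895 (12.1%) in KO and 1190 (16%) and 990 (13.3%) in KI. At 10 to under 20% they were 791 (10.7%) and 1015 (13.7%) in KO and 793 (10.7%) and 1075 (14.5%) in KI. The bins were not fully matched, since the mean protamine share of the top bin was 15.3% for WT, 10.7% for KO and 11.7% for KI. Single bins hold fewer UMIs, which widens the counting error of each ratio.

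The genes that were lower in the mutants were mostly genes of the earlier stage. Of the 630 genes lower in KO, 75.6% had their highest WT level in early round spermatids, as had 85.2% of the 708 lower in KI, against 52.9% of all compared genes. Of the higher genes, 23.9% in KO and 23.7% in KI were highest in WT early cells, and 47.1% and 48.5% in WT late cells. Without the cells of high doublet score, 61.9% of the genes lower in KO and 71.5% of those lower in KI were highest in early cells, against 51.4% of all genes. The WT levels enter both the ratio and the stage, so the shares describe the same library.

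The genes most clearly higher in both mutants, by the smaller of their log2 ratios and with the same sign in each bin, included several that WT cells hardly contained. Angptl2, a secreted angiopoietin-like protein, had 0 UMIs in the WT late round spermatids, 439 in KO and 248 in KI, which is 84.9 and 76.3 CPM. Taking 3 UMIs as the most that 0 observed ones allow in the WT library, it was at least 129-fold higher in KO and at least 116-fold higher in KI. Early cells had 0.205, 3.47 and 4.62 CPM and later WT spermatids 3.15 CPM, so it was highest in the late mutant cells.

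Gadd45b, a stress-inducible regulator of growth arrest, was at 1.1 CPM for WT, 81.7 for KO and 71.1 for KI, log2 ratios of 5.30 and 5.10 with 1 CPM added. Without that addition the interval of the log2 ratio ran from 4.98 to 7.85 in KO and from 4.77 to 7.65 in KI. Sln, sarcolipin, which restrains the calcium pump of the sarcoplasmic reticulum, was at 1.98, 96.7 and 111 CPM (5.04 and 5.23). Neither gene was seen at this level in any of the 3 WT stages, with 1.13 CPM of Gadd45b and 0.205 of Sln in early cells and 0.21 CPM of Gadd45b and 0.84 of Sln in later WT spermatids.

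Tarsl2, which encodes a threonyl-tRNA synthetase, was at 5.49, 103 and 82.2 CPM (4.0 and 3.68), and E130006D01Rik at 6.15, 95 and 71.4 CPM (3.75 and 3.34). Meox1, a homeobox factor, was at 8.13, 92.7 and 90.2 CPM (3.36 and 3.32), and Spdef, an Ets family factor, at 7.25, 84.9 and 64.3 CPM (3.38 and 2.98). Dhh, desert hedgehog, a signalling ligand best known from Sertoli cells, was at 7.03, 70.4 and 72.9 CPM (3.15 and 3.20). Sertoli cell markers summed to 37.4, 110 and 95.1 CPM in the same cells, or 31.0, 92.5 and 85.0 CPM without the genes of the rule. Their part in the Dhh level was not tested. The predicted gene 4930594M17Rik was at 13.6, 115 and 106 CPM (2.99 and 2.87). In early round spermatids none of these 6 genes passed 10 CPM in any library.

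Yipf6, a Golgi membrane protein, was at 32.1, 296 and 321 CPM, with log2 ratios of 3.17 (interval 2.96 to 3.46) and 3.28 (3.07 to 3.58). It was already higher in early mutant cells, at 14.8, 81 and 75.1 CPM. Leaving out the cells of high doublet score changed the ratios of the group little, with Angptl2 at 6.44 and 6.27 and Yipf6 at 3.04 and 3.15. In free RNA Angptl2 stood at 2.66, 9.61 and 8.19 CPM and Yipf6 at 27, 64.6 and 93.3 CPM, below the mutant cells.

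**Figure D3:**
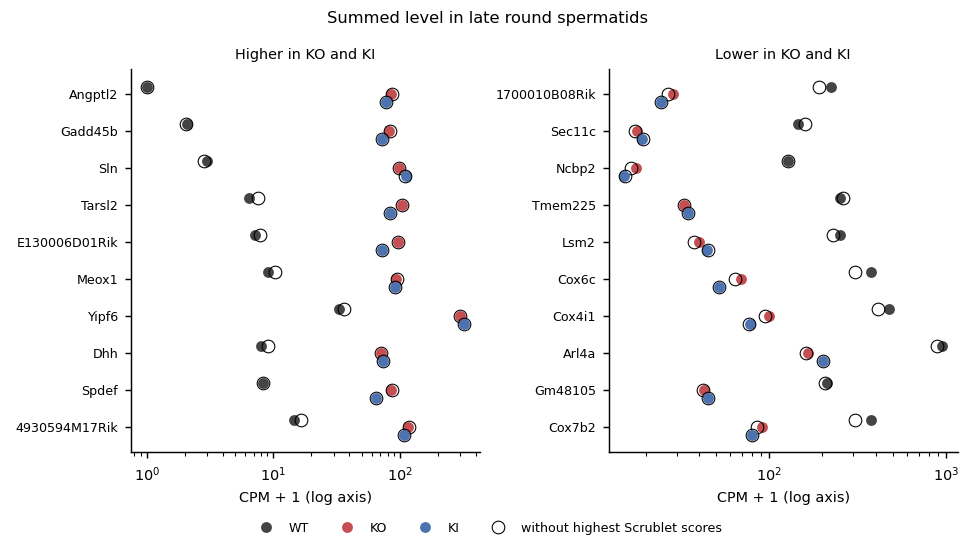
CPM on a log x axis in WT, KO and KI late round spermatids for the 10 genes higher and the 10 genes lower in both mutants by the stated rule, plotted with 1 CPM added, each filled point 1 library and each open circle the level without the highest Scrublet scores. Angptl2 is at 0 in WT and at 84.9 and 76.3 CPM in KO and KI, and Arl4a is at 949, 164 and 199 CPM.

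The genes most clearly lower in both mutants were chosen by the same rule. Arl4a, a small GTPase of the ARF family, was at 949 CPM for WT, 164 for KO and 199 for KI, log2 ratios of −2.52 (interval −2.64 to −2.42) and −2.25 (−2.37 to −2.13). It stayed high in the later WT spermatids, at 1219 CPM, so the mutants lay below every WT stage. Early cells had it at 1168, 384 and 412 CPM.

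Lsm2, of the ring that binds U6 RNA, was at 250, 38.9 and 43.7 CPM (−2.65 and −2.49), and Ncbp2, the small subunit of the nuclear cap-binding complex, at 127, 16.6 and 14.2 CPM (−2.86 and −3.08). Sec11c, a subunit of the signal peptidase complex, was at 145, 16.8 and 18.2 CPM (−3.03 and −2.93). Tmem225, a testis membrane protein, was at 250, 31.9 and 33.5 CPM (−2.93 and −2.86). 1700010B08Rik, at 223, 27.5 and 23.4 CPM (−2.97 and −3.20), and Gm48105, at 210, 41.8 and 44 CPM (−2.30 and −2.23), are predicted genes without a described role here. All 10 genes lower by this rule were already lower in early mutant cells, for example Tmem225 at 415, 141 and 145 CPM, 1700010B08Rik at 340, 67.4 and 64.8 CPM and Sec11c at 159, 92.6 and 71.4 CPM.

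3 of the 10 were subunits of cytochrome c oxidase. Cox6c was at 377, 68.1 and 51.1 CPM (−2.45 and −2.86), Cox4i1 at 477, 98.1 and 76.9 CPM (−2.27 and −2.62) and Cox7b2, a testis form, at 375, 89.6 and 79.1 CPM (−2.05 and −2.23). Without the cells of high doublet score these were −2.27 and −2.56 for Cox6c, −2.13 and −2.42 for Cox4i1, and −1.85 and −1.94 for Cox7b2. Free RNA held more of them than the cells, for example 849, 769 and 694 CPM of Cox6c, and its part in the levels was not tested.

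Gene groups were then read as lists, each by its median log2 ratio and the number of its compared genes past 2-fold, beside the median of all genes and the shares of 9.85% and 8.49% (KO) and 11.5% and 9.54% (KI) given above. Genes of the haploid program itself were near the median of all genes. Of 46 acrosome genes the median was 0.13 in KO and 0.08 in KI, with 1 higher and 3 lower in KO and 1 and 4 in KI, or 0 and 1 lower without the high doublet scores. Of 45 genes of the outer dense fibre and fibrous sheath, the medians were 0.06 and 0.05, with 0 higher and 1 lower in each mutant. The 8 testis-specific serine kinase genes had medians of −0.01 and −0.04 and none past 2-fold. The 42 manchette and head-shaping genes had medians of −0.04 and −0.01, with 2 higher and 2 lower in KO and 2 and 3 in KI. Without the high scores their medians were 0.17 and 0.12, with 3 higher and 1 lower in KO and 2 and 1 in KI. The 32 genes of ion channels and fusion had medians of 0.02 and −0.05, with 1 higher and 3 lower in KO and 1 and 5 in KI, or 2 lower in each without the high scores.

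Some abundant genes of these groups had close levels in the 3 libraries. Crisp2, a secreted protein of the acrosome and tail, was at 2227, 1996 and 2118 CPM, and Iqcf1, of the acrosome, at 1794, 1958 and 1923 CPM. Tssk2, a kinase of late spermatids, was at 1137, 1286 and 1234 CPM, and Gapdhs, the sperm form of a glycolytic enzyme, at 1109, 1094 and 1090 CPM. Actrt3, an actin-related protein of the sperm head, was higher in both mutants, at 196, 488 and 535 CPM (1.32 and 1.45).

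The 3 acrosome genes past 2-fold lower in KO were also past it in KI, and differed less in early cells. Dpy19l2, which anchors the acrosome to the nucleus, was at 36.9, 11.6 and 11.1 CPM (−1.59 and −1.65), and Spam1, the sperm hyaluronidase, at 25.3, 9.67 and 6.77 CPM (−1.30 and −1.76). Spesp1, an equatorial segment protein, was at 137, 66.9 and 67.1 CPM (−1.02 in each). Early levels were 341, 338 and 349 CPM for Spesp1 and 179, 147 and 172 CPM for Spam1. Without the cells of high doublet score Dpy19l2 went to −0.82 and −0.81, Spesp1 to −0.76 and −0.74 and Spam1 to −0.90 and −1.35.

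Ift20, an intraflagellar transport protein also needed in the manchette, was at 47.5, 11.4 and 8.62 CPM (−1.97 and −2.33), and it was at −1.97 and −2.18 without the high scores. Tuba1c, a tubulin, was at 18.9, 42.4 and 50.8 CPM (1.12 and 1.38). Slc22a16, a carnitine carrier, was at 79.3, 22.3 and 19.1 CPM (−1.79 and −2.0). Of 48 axoneme genes the medians were −0.08 and −0.15, with 2 higher and 7 lower in KO and 2 and 10 in KI. Without the high scores the axoneme medians were 0.02 and −0.03, with 3 higher and 2 lower in KO and 2 and 4 in KI. Dynlrb2, a dynein light chain, stood at 245, 113 and 99.4 CPM (−1.11 and −1.29), and Cfap221, of the central pair, at 35.4, 80.7 and 90.5 CPM (1.17 and 1.33).

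Chromatin genes had medians of −0.02 and −0.01 over 23 genes, with 2 higher and 2 lower in KO and 2 and 3 in KI. Prm3, the protamine relative that stays in the cytoplasm, was at 3684, 3027 and 2640 CPM, and Hils1, the spermatid linker histone, at 2395, 2814 and 2736 CPM. Hmgb4, a testis high-mobility-group protein, was at 2835, 2800 and 2919 CPM. Nasp, a histone chaperone, was lower at 422, 162 and 142 CPM (−1.38 and −1.56, or −0.98 and −1.06 without the high scores), and the histone variant gene H2afz was at 211, 80.3 and 46.2 CPM (−1.39 and −2.17, or −0.82 and −1.49). Hmgb1, a chromatin protein of most cells, was at 52.1, 108 and 110 CPM (1.04 and 1.07).

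Crem itself was at 339, 224 and 229 CPM (−0.60, interval −0.71 to −0.49, and −0.56, −0.69 to −0.44), and at 570, 444 and 469 CPM in early cells. The 21 genes of the CREM and spermatid transcription list had medians of −0.00 and −0.02, with 1 higher and 1 lower in KO and 1 and 2 in KI, or 1 and 0 lower without the high scores, and with Fhl5, the CREM coactivator, at 963, 1138 and 1174 CPM. Meioc, a meiotic regulator, was at 13.4, 38.5 and 44 CPM (1.46 and 1.64, or 2.1 and 2.31 without the high scores, where WT was at 8.11 CPM). Of the 28 genes of the chromatoid body and mRNA storage, to which GRTH belongs, 0 were higher and 2 lower in KO, Ddx25 among them, and 1 and 2 in KI. Their medians were −0.04 and 0.00, or 0.16 and 0.17 without the high scores, where 1 was lower in KO and 0 in KI. Ybx1 and Ybx3, which bind stored messages, were at 1490, 1883 and 1786 CPM and at 1382, 1624 and 1555 CPM. Pabpc1, the poly(A)-binding protein, was at 1306, 806 and 747 CPM (−0.70 and −0.81).

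**Figure D4:**
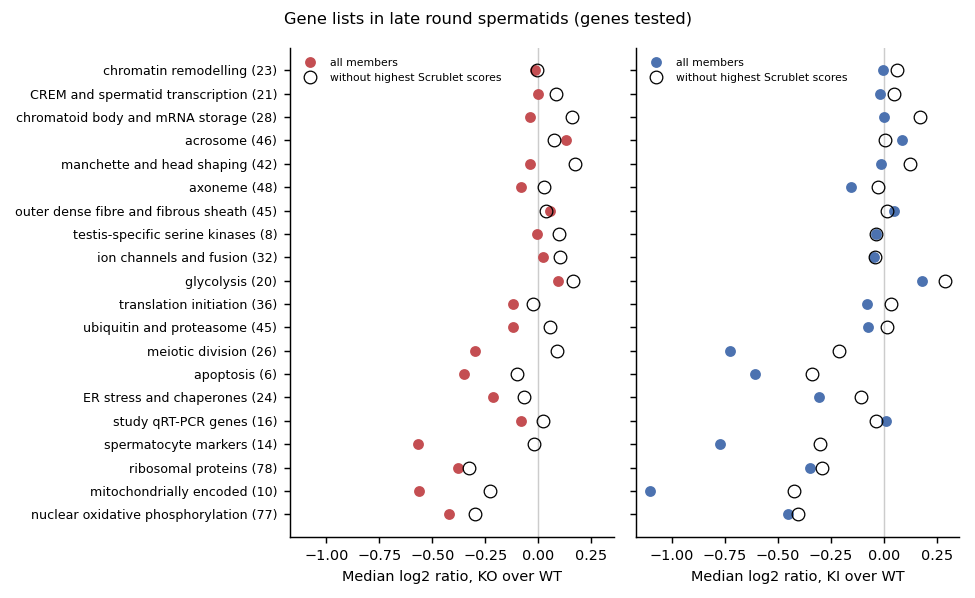
Median log2 ratio of KO and of KI against WT (x axis) for each gene list (y axis, genes compared in brackets), filled points for all cells, open circles without the cells of the highest doublet scores, and a line at 0. The lists of the haploid program lie near 0, nuclear oxidative phosphorylation lies at −0.42 and −0.45 with all cells, and the meiotic and spermatocyte lists move toward 0 when the high scores are left out.

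Genes of oxidative phosphorylation and of the ribosome had medians below that of all genes in both mutants. Of 77 nuclear oxidative phosphorylation genes, 0 were higher and 18 lower in KO, with a median of −0.42, and 1 was higher and 18 lower in KI, with a median of −0.45. Without the high scores 16 were lower in each mutant, with medians of −0.30 and −0.41. After the subtraction of free RNA by markers of other cell types, 65 genes were still compared, with medians of −2.24 and −0.72. That setting took 45.4% of the KO UMIs as free RNA, in which Ddx25 stood at 41.0 CPM. At such a share KO cells would hold far more Ddx25 than the 0.193 CPM read, so these medians are of limited use. With the share given by pachytene protamine, 0.846% in KO, the list medians stayed within their limits. All 96 genes of the list summed to 21644 CPM for WT, 15564 for KO and 15207 for KI. In early cells the sum was 30608, 23586 and 22489 CPM, so the gap was present before the late stage. Cox8c, a testis form of a cytochrome c oxidase subunit, was at 1069, 264 and 218 CPM (−2.01 and −2.29, or −1.72 and −1.91 without the high scores). Atp5j, of the ATP synthase stalk, was at 389, 177 and 190 CPM (−1.13 and −1.03). Others differed little, such as Uqcc2, an assembly factor of complex III, at 1493, 1463 and 1310 CPM.

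The 10 compared mitochondrially encoded genes had medians of −0.56 and −1.10, with 1 lower in KO and 6 in KI, and of −0.23 and −0.43 with 0 and 2 lower without the high scores. mt-Co2, a cytochrome c oxidase subunit, went from −0.41 and −0.65 to 0.06 and 0.22, so its direction turned with those cells. The median cell held only 0.00648% of its UMIs from mitochondrial genes for WT, 0.00903% for KO and 0.00432% for KI, against pooled levels of 2312, 1563 and 1130 CPM, so nearly all of these UMIs came from cells above the median. Over the bins the list's medians were 0.02, −0.65 and −1.15 (KO) and −2.31, −0.23 and −5.61 (KI). The 78 compared ribosomal protein genes had medians of −0.38 and −0.35, with 1 higher and 9 lower in KO and 2 and 8 in KI. Without the high scores the ribosomal medians were −0.33 and −0.29, with 5 lower in each mutant. After the same subtraction, with the same limit and over 72 genes, they were −1.09 and −0.54. Rpl9, of the large subunit, was at 222, 60.2 and 61.6 CPM (−1.86 and −1.83), whereas Rpl13 was at 1775, 1698 and 1612 CPM. Rps21, of the small subunit, was at 322, 139 and 149 CPM (−1.21 and −1.11). Ribosomal protein genes have many near-identical pseudogene copies, so their counts are uncertain where reads are shared.

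Translation initiation genes had medians of −0.12 and −0.08 over 36 genes, with 1 higher and 2 lower in KO and 2 and 2 in KI. The medians were −0.03 and 0.03 without the high scores, so that of KI turned. Eif2s2, a subunit of the factor that brings the initiator tRNA, was at 225, 80.5 and 65.3 CPM (−1.47 and −1.77). Eif4e, the cap-binding protein, was at 849, 444 and 485 CPM (−0.93 and −0.81), although it was at 129, 98.5 and 82.7 CPM in early cells. Its relative Eif4e3 went the other way, at 14.7, 59.2 and 53.2 CPM (1.94 and 1.79). Eif1, which selects the start codon, was at 2754, 2574 and 2769 CPM.

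Of 45 ubiquitin and proteasome genes 0 were higher and 6 lower in each mutant, with medians of −0.12 and −0.08. Of the 43 still compared without the high scores, 4 were lower in KO and 3 in KI, and the medians were 0.053 and 0.012. Psma3, a proteasome core subunit, was at 82.6, 25.5 and 22.8 CPM (−1.66 and −1.81). Ubb, a polyubiquitin gene, was at 2826, 3099 and 3077 CPM. The 20 glycolysis genes had medians of 0.09 and 0.18, with 2 higher and 0 lower in KO and 3 and 1 in KI, or 0 lower in each without the high scores, and Hk2, a hexokinase, was at 2.2, 15.5 and 17.2 CPM (2.37 and 2.51). With cells thinned to 4000 UMIs the glycolysis median of KI was −0.16, so its direction turned.

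The 24 compared genes of endoplasmic reticulum stress and chaperones had medians of −0.21 and −0.30, with 1 higher and 4 lower in KO and 2 and 7 in KI. Over the 22 still compared without the high scores, the medians were −0.07 and −0.11, with 1 and 2 lower. The chaperone Hspa5 was at 62, 23 and 14.2 CPM (−1.39 and −2.05), and its partner Hsp90b1 at 64.2, 28.4 and 17.5 CPM (−1.15 and −1.81). Without the high scores these were −0.54 and −0.90 for Hspa5, and −0.41 and −0.78 for Hsp90b1, all short of 2-fold. In early round spermatids both were higher in the mutants, with 153, 244 and 229 CPM of Hspa5 and 145, 226 and 239 CPM of Hsp90b1. Selenos, a selenoprotein of the degradation pathway, was at 146, 50.5 and 44.6 CPM (−1.51 and −1.69).

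Lists of earlier stages also depended on those cells. The 26 meiotic division genes had medians of −0.30 and −0.73, with 0 higher and 6 lower in KO and 0 and 10 in KI, and medians of 0.09 and −0.21 with 1 and 2 lower without the high scores. After subtraction of free RNA by markers of other cell types, 11 of them were still compared, with medians of −1.16 in KO and 0.17 in KI, so the KI direction turned. The share subtracted was 45.4% in KO, with the limit from Ddx25 given above, and 30.2% in KI. Aurka, a spindle kinase, was at 44.2, 17.2 and 11.1 CPM, with log2 ratios of −1.31 and −1.90 that became −0.57 and −0.99. Birc5, of the chromosomal passenger complex, held at 72.7, 26.9 and 27.1 CPM, with −1.40 and −1.39 against −1.08 and −1.05. The 14 spermatocyte markers had medians of −0.57 and −0.77, with 0 higher and 2 lower in KO and 1 and 6 in KI, and of −0.02 and −0.30 with 2 lower in each without the high scores. All 18 markers of the list summed to 1946, 1404 and 1267 CPM with all cells. The 6 compared apoptosis genes had medians of −0.35 and −0.61, with 1 lower in KO and 3 in KI, or 0 and 1 without the high scores.

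X-linked genes had a higher median log2 ratio than the genes of any autosome, where chromosome medians ran from −0.079 to 0.12 in KO and from −0.087 to 0.095 in KI. They were chosen as a list after their values were seen. The X chromosome is silenced in meiosis and stays largely repressed in round spermatids, where a number of its genes are read again. X-linked genes took 1.64% of the UMIs of WT late round spermatids, 2.49% in KO and 2.65% in KI, or 1.77%, 2.50% and 2.65% without the high scores. Over the bins the share was 1.35%, 1.61% and 1.79% for WT, 2.20%, 2.48% and 2.88% for KO, and 2.28%, 2.75% and 2.79% for KI. The lowest mutant bin thus lay above the highest WT bin, which was at 1.88% without the high scores. In early cells the shares were 1.03%, 1.22% and 1.26%.

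Of the 190 X-linked genes compared, 59 were higher in KO (31.1%) and 66 in KI (34.7%), while 2 and 0 were lower, with medians of 0.60 and 0.69. Without the high scores 54 and 63 were higher, 2 and 1 lower, and the medians were 0.49 and 0.57. Among early cells the medians were 0.30 and 0.39, with 28 and 35 genes higher, where 4.92% and 4.66% of all compared genes were higher. Within each library the X-linked genes were higher in late than in early cells, with a median log2 ratio of 0.67 for WT, 1.02 for KO and 1.14 for KI. Y-linked genes, 11 of which were compared, took 0.038%, 0.051% and 0.059% of UMIs.

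Besides Yipf6, described above, several X-linked genes named after their values were seen were several fold higher. Gm9 was at 31.9, 212 and 228 CPM (2.7 and 2.80), and Tcp11x2, a relative of a sperm motility gene, at 36.0, 164 and 165 CPM (2.15 and 2.16). Rlim, a ubiquitin ligase known for X inactivation, was at 49.9, 143 and 155 CPM (1.5 and 1.61), and Lamp2, a lysosomal membrane protein, at 60.0, 146 and 165 CPM (1.27 and 1.45). Rlim was at 3.78 CPM in later WT spermatids. Other X-linked genes were level, such as Akap4, the main fibrous sheath protein, at 702, 685 and 693 CPM, and Hypm at 816, 888 and 944 CPM. The part of gene copies that share reads, as in the multicopy families of this chromosome, was not tested.

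**Figure D5:**
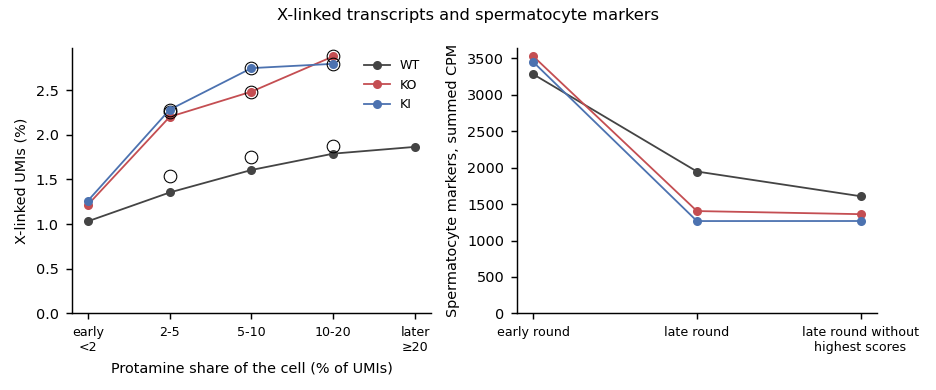
Left, share of UMIs from X-linked genes (y axis, percent) in early round spermatids, the 3 protamine bins and later WT spermatids. Right, summed CPM of spermatocyte markers in early cells, late cells and late cells without the highest doublet scores. Each filled point is 1 library, and open circles leave out the highest scores. The lowest bin is at 2.20% in KO and 2.28% in KI, above the 1.79% of the highest WT bin.

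Between KO and KI fewer genes were past 2-fold than between either and WT. Of the 7423 genes 65 were higher in KO than in KI (0.876%) and 46 lower (0.62%), with a median of −0.01. These numbers depended strongly on the processing, with 115 higher and 560 lower when each cell had the same weight, 404 and 863 when cells were thinned to 4000 UMIs, and 896 lower after subtraction of free RNA in the share given by markers of other cell types. Thinning leaves fewer UMIs to each gene, which widens the counting error of a ratio. The subtraction has the limit from Ddx25 given above. At 2 to under 5% protamine share 193 genes were higher (2.6%) and 316 lower (4.26%), at 5 to under 10% 128 (1.72%) and 70 (0.943%), and at 10 to under 20% 418 (5.63%) and 348 (4.69%), where single bins of KI hold few cells. Without the high doublet scores 49 were higher (0.673%) and 47 lower (0.646%), and among early cells 44 (0.593%) and 21 (0.283%). Of the genes past 2-fold over all late cells, 9 of the 65 and 9 of the 46 lay on chromosome 9, which holds Ddx25 at chr9:35536647-35558528 (GRCm38) and 428 of the compared genes (5.77%). Over both directions chromosome 9 held 18, the most of any chromosome. Chromosome 1, with 444 compared genes, held 11, and chromosome 16, with 257, held 9. In a single direction the lead was smaller or absent, since chromosome 1 also held 9 of the 65 and chromosome 16 held 7 of the 46. Among early cells chromosome 9 held 10 of the 44 higher and 6 of the 21 lower genes. No other chromosome held more than 6 and 5 of these. The cause was not tested.

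Some of the named genes were nearly absent from 1 library only. The lowest of the named genes in KO against KI, below Ddx25, was Klrb1, a lectin-like receptor of lymphocytes, with 435 UMIs for WT, 0 for KO and 1090 for KI, or 95.6, 0 and 335 CPM, where 0 allows up to 0.58 CPM in KO. C030014I23Rik was at 10.5, 5.8 and 193 CPM, Rpl29, a ribosomal protein, at 48.4, 29.2 and 334 CPM, and Cd3d, a T cell receptor subunit, at 51.4, 17.8 and 83.4 CPM, all on chromosome 9. In the other direction, 1700029N11Rik was at 93.8, 60.8 and 0.308 CPM, the last from 1 UMI. Its KI level was 0.00328 of WT, with a log2 interval of −13.56 to −5.77.

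Yjefn3, of a family of epimerase-like proteins, was at 124, 112 and 2.46 CPM, with a log2 ratio of KO over KI of 5.03 (interval 4.52 to 6.73). Rabgef1, an exchange factor of endosomes, was at 56.3, 104 and 3.08 CPM. Pccb, a subunit of propionyl-CoA carboxylase on chromosome 9, was at 190, 299 and 48.6 CPM, with a log2 ratio of KO over KI of 2.59 (2.38 to 2.86), and it was at 109, 124 and 19.9 CPM in early cells. Gm4665, also on chromosome 9, was at 61.8, 219 and 52.6 CPM.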

How the data were processed

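Droplet 3′ RNA counts of testis cells from 1 library each of WT, KO and KI were analysed. The authors aligned reads to mm10 and deposited raw UMI counts of 31053 genes for every barcode, not normalized and not called as cells. The file header names Cell Ranger 4 and the submitters' processing notes Cell Ranger 2.1.1. The sources also differ on the sequencer and on animals per library. The libraries held 82973909 UMIs for WT, 91388296 for KO and 73150373 for KI, in 1673774, 1472770 and 1813075 barcodes. 0 columns were left unused as belonging to other samples.

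Barcodes with at least 4000 UMIs, over 500 genes and under 10% mitochondrial UMIs were kept (3294, 2058 and 1072), and late round spermatids were taken by the rule in the report. The members and the gene lists were chosen with earlier results of these data known. Sums of UMIs were taken over these cells in each library, and log2 ratios were taken with 1 CPM added. The study compared cells as replicates, which was not followed, and no test or p-value is given. Intervals are at 95%, exact Clopper-Pearson for shares and exact conditional binomial for ratios of UMIs, and cover counting error only. A floor of 3 UMIs stands for a count of 0.

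Named are the genes of the rule, Ddx25, Crem, the 10 most abundant others, the 10 highest and 10 lowest in both mutants, the 8 strongest upward and 8 downward trends over the bins and the 5 highest and 5 lowest between KO and KI, each at a mean of at least 50 CPM. Up to 4 abundant genes and up to 4 genes past 2-fold of each of 26 lists, and every gene of the study's qRT-PCR, were added to these. Genes shown by the rule but close to their neighbours are given as counts. X-linked genes other than Yipf6 were chosen after their values were seen.

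Doublets were not removed in the reported values. Scrublet scores (scanpy 1.11.5) served to leave out the highest at 0.8% per 1000 kept barcodes. Python 3.11.15, pandas 2.3.3, scipy 1.17.1, numpy 2.4.6, anndata 0.12.19, matplotlib 3.10.9, R 4.3.3 and edgeR 4.0.16 (for TMM factors of these counts) were used. The sums were tested on simulated data with known fold changes. In all, 18 alternatives of scaling, filters, range, weighting, thinning, doublets and free RNA were tried. Gene positions come from GENCODE on GRCm38, and promoters from RefSeq on GRCm38.p6, where 5569 of the 7423 compared genes had one.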

Additional observations from a re-analysis of the deposited data

Results flagged for a closer look

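Only the named genes outside the 8 genes of the rule were searched here, not all 7423 compared genes. For 5 of them the log2 ratio of late over early round spermatids lay on opposite sides of 0 in WT and in both mutants, with intervals of counting error that did not reach 0. The difference between genotypes was not tested. Tex101, a germ cell surface protein, was at 0.37 in WT, −1.0 in KO and −0.80 in KI. Crisp2, a secreted protein of the acrosome and tail, was at 0.14, −0.26 and −0.20, and Eif5, a translation initiation factor, at 0.10, −0.21 and −0.16. Rpl41, a ribosomal protein, was at 0.084, −0.18 and −0.18. Syce3, of the synaptonemal complex, went the other way, at −0.075 in WT against 0.19 in KO and 0.33 in KI. All but Tex101 differed by less than 2-fold between stages in every library. Without the high doublet scores among the late cells, the WT levels were 23.5 CPM late and 19.99 early for Tex101, 2107 and 2015 for Crisp2, 351 and 341 for Eif5, and 2089 and 2085 for Rpl41. Syce3 was then at 526 CPM late and 522 early in WT, so its WT direction turned and it no longer lay opposite to the mutants. Intervals were not taken without those cells, and Rpl41 and Eif5 were then close to level in WT. Whether the other flagged genes still met the rule was therefore not tested.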

How the results depend on the processing

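No paired analysis was possible because each genotype has 1 library. Of 10152 ratios of named genes under 18 alternatives, 3 of them added after seeing the data, 7789 stayed within the interval of their counting error, and 3 of those past 2-fold changed sign. Sign changes of smaller ratios were not counted. Thinned to 4000 UMIs, Hmgb3 and Vwf stood at −1.01 and −0.27 in KI against WT, and at 5 to under 10% 1700084D21Rik stood at 0.33 in KO. The higher and lower counts below are given in that order. At a mean of 1 CPM or more, they were 1571 and 1671 (KO against WT), 1812 and 2124 (KI against WT) and 396 and 231 (KO against KI). From the lowest to the highest bin they were then 1575 and 3313 (WT), 1540 and 4037 (KO) and 1623 and 4097 (KI). At a mean of 50 CPM or more they were 194 and 173, 223 and 156, and 10 and 12, and over the bins 328 and 339, 192 and 344, and 178 and 379. These settings test more or fewer genes. For the settings that follow the cause was not tested. With 5 CPM added, KO against KI gave 23 and 26. With barcodes of at least 2000 UMIs, the members' shares were 11.04% (WT), 9.76% (KO) and 10.3% (KI), and under 40000 UMIs 9.86% (KO) and 5.78% (KI). With each cell weighted equally, 1576 genes were higher in KI against WT, and KO against KI gave 115 and 560. KI then had 2362 lower genes over the bins, an X-linked median of 0.89, a fibre and sheath median of −0.13 and a ribosomal one of −0.48, and KO a mitochondrially encoded one of −1.09. With cells thinned to 4000 UMIs, 1668 genes were higher in KI, KO against KI gave 404 and 863, the bins gave 1100 and 2176 (KO) and 1002 and 2892 (KI), and the KI medians were 0.91 (X-linked), −0.13 (fibre and sheath), −0.16 (glycolysis) and −0.27 (translation initiation). Under 40000 UMIs these were 1429, 162 and 488, and 891 and 2491 (KI bins), with KI medians of 0.97 (X-linked), −2.51 (mitochondrially encoded) and −0.53 (ribosomal) and a KO mitochondrially encoded one of −0.97. Without any Piwil1 UMI the WT share was 7.32%, 80 genes were lower in KO against KI and the mitochondrially encoded KI median was −2.85. At 5 to under 15%, 110 genes were higher in KO against KI and the mitochondrially encoded KO median was −0.93, and at 5 to under 10% the counts were 123 and 71, with a KI median of −0.23. Without the highest Scrublet scores, the WT share was 6.86%, 470 genes were lower in KI, and the medians were 0.57 (X-linked, KI), 0.49 (X-linked, KO), 0.087 (meiotic division, KO), −0.43 (mitochondrially encoded, KI) and −0.020 (spermatocyte markers, KO). Subtracting free RNA in the share of 36.4% (WT), 45.4% (KO) and 30.2% (KI) that other-cell-type markers give, some of which spermatids express, gave 1159 higher WT bin genes, 896 lower in KO against KI and 1284 lower in KO against WT. The KO medians were then 0.85 (X-linked), 0.31 (acrosome), −0.40 (axoneme), −1.16 (meiotic division), −2.24 (nuclear oxidative phosphorylation), −1.09 (ribosomal), −1.10 (spermatocyte markers), −0.46 (translation initiation) and −0.28 (ubiquitin and proteasome), and those of KI 0.17 (meiotic division), −0.72 (nuclear oxidative phosphorylation) and −0.54 (ribosomal). Subtracting the 1.15% (WT), 0.846% (KO) and 0.392% (KI) given by pachytene protamine moved none of these past the limits, nor did totals of all UMIs, which placed the median of all genes at 0.071 in KO and 0.092 in KI, or these with TMM factors (1.01, 0.995 and 0.998), at 0.088 and 0.11. KI has the fewest cells, 88, with 20 and 13 in the outer bins, and the KO top bin the fewest UMIs of the 3 top bins, 781534.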

Other observations

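Genes that the study had measured by qRT-PCR in purified spermatids were chosen by it on the same genotypes and are not independent evidence of a direction. Of these 16 genes, 0 were higher and 1 lower past 2-fold in KO against WT, and 1 was higher and 2 were lower in KI, with medians of −0.08 and 0.01. Over all compared genes the shares were 9.85% and 8.49% in KO and 11.5% and 9.54% in KI. Without the high doublet scores 1 was lower in each mutant, and the medians turned to 0.020 and −0.039. None of the 5 genes that follow was past 2-fold. The study's qRT-PCR, relative to Tex29 in isolated round spermatids, gave all 5 as lower in both mutants. The study also states that its qRT-PCR matched the differences in the round spermatid cluster of its single-cell data. That cluster is another set of cells from these libraries, with another scaling, and was not compared here. Spata25 was at 558 CPM for WT, 843 for KO and 801 for KI, and Tssk1, a kinase of late spermatids, at 675, 986 and 939 CPM. Eqtn, equatorin, was at 237, 280 and 309 CPM, and Capza3, an actin capping subunit, at 630, 602 and 633 CPM. Atp6v1e2, a proton pump subunit, was at 495, 580 and 526 CPM.

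Of the translation genes, Rps26 was at 849, 565 and 589 CPM and Rps29 at 1958, 1503 and 1438 CPM. The study gave Dnajc3, Cdc20, Ccna1 and Dnah8 as higher in both mutants, and with all late cells only Dnajc3 was so here. Dnajc3, a chaperone cofactor of the endoplasmic reticulum, was at 11.9, 22.1 and 29.5 CPM, log2 ratios of 0.84 and 1.25. Cdc20, an activator of the anaphase-promoting complex, was at 29.5, 18.2 and 11.1 CPM in late cells but at 63.3, 168 and 154 CPM in early cells. Ccna1, the germ cell cyclin, was at 42.2, 32.9 and 27.4 CPM late and 99.5, 163 and 153 CPM early. Dnah8, an axonemal dynein, was at 120, 75.7 and 60.3 CPM late and 178, 225 and 257 CPM early. Without the cells of high doublet score in all 3 libraries, the late log2 ratios of Ccna1 were 0.38 and 0.21, so its direction turned, and those of Cdc20 were 0.23 and −0.37.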
